A study of Zea mays with 18 samples.

Results

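The genes of sulfate uptake and assimilation were followed in maize roots. A gene was a member when its annotation, as deposited with the data, named a sulfate transporter, ATP sulfurylase, adenylylsulfate or adenylyl-sulfate (the enzymes of adenosine phosphosulfate, APS), sulfite reductase, serine acetyltransferase or cysteine synthase. This gave 47 of the 39755 annotated genes, on all 10 chromosomes, and 38 of the 47 reached at least 1 FPKM (fragments scaled for gene length and library size) in at least 3 of the 18 libraries and were tested. The members comprised 9 sulfate transporters, 6 ATP sulfurylases, 2 APS reductases, 8 APS reductase-like genes, 4 APS kinases, 1 sulfite reductase, 3 serine acetyltransferases and 11 cysteine synthases. Another 3 were caught by the name of a protein domain alone, namely 2 ferredoxin-nitrite reductases, which share a nitrite and sulfite reductase domain with sulfite reductase, and 1 homologue of the protein EI24. Gene names and roles are those of the annotated homologue in the deposited file, mostly from Arabidopsis, rice or spinach, except that the names *sfp1* to *sfp7*, *cys1* and *cys2* are symbols or synonyms of maize genes in RefSeq.

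RNA-Seq was carried out on whole roots of 2 genotypes in 3 growth regimes, with 3 libraries in each of the 6 groups. The *zmccd8* mutant carries a Ds transposon in *ZmCCD8*, a gene of strigolactone biosynthesis, in the B73 background, and the wild type (WT) was B73. All plants grew for 4 weeks in vermiculite. The groups were *zmccd8* under 0N, *zmccd8* under WS, *zmccd8* under CT, WT under 0N, WT under WS and WT under CT. Under 0N (nitrogen deficiency) the 1 mM KNO3 of the Hoagland solution was replaced by KCl. Under WS (water stress) plants received the complete solution at transplanting and no irrigation afterwards, so that the supply of water and that of every nutrient, sulfate included, cannot be told apart. Under CT (control) plants received the complete solution several times a week. The labels name the libraries of a group as independent biological replicates, and the study describes RNA from pooled plants.

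Sulfate enters root cells through proton-coupled transporters of the SULTR family. In Arabidopsis the group 1 members are high-affinity carriers and the group 4 members export sulfate from the vacuole. Several group 3 members serve plastids or transport between tissues. ATP sulfurylase activates sulfate to APS. APS reductase and then sulfite reductase turn APS into sulfide, whereas APS kinase diverts APS to PAPS, the donor for sulfated metabolites. Serine acetyltransferase makes O-acetylserine, and cysteine synthase (O-acetylserine(thiol)lyase) joins it with sulfide to form cysteine, the source of reduced sulfur for glutathione and methionine. In many plants the uptake and reduction steps are induced when sulfur is short and are adjusted to the supply of nitrogen.

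The libraries held 30104083 to 43429912 fragments rebuilt from the FPKM values (median 34826106), so a gene at a few FPKM was covered by many fragments in each library. No pair of libraries in a group agreed within sampling noise. *ZmCCD8* itself had 17.6, 9.47 and 19.2 FPKM in *zmccd8* under 0N, against 70.9, 64.1 and 47.8 FPKM in WT under 0N. Under WS it had 27.4, 24.2 and 18.1 FPKM in *zmccd8* and 10.7, 9.22 and 8.85 FPKM in WT, and under CT 16.6, 5.63 and 8.22 FPKM in *zmccd8* and 5.80, 8.76 and 4.16 FPKM in WT. Transcript of a gene that carries an insertion can still be counted, so these levels by themselves do not check the mutant label. The list of root endodermis markers held 45 genes, 7 to 10 of them at 0 in every library of a group. It summed to 435 to 509, 234 to 285 and 659 to 707 FPKM in *zmccd8* under 0N, WS and CT. In WT it summed to 586 to 631, 273 to 284 and 558 to 799 FPKM. A subset cut from this list, the 7 genes of the Casparian strip membrane proteins proper, was detected in full in every group. The subset summed to 35.5 to 87.8, 16.8 to 42.9 and 115 to 151 FPKM in *zmccd8* under 0N, WS and CT. In WT its sums were 72.8 to 102, 34.6 to 54.8 and 107 to 190 FPKM. The 52 genes listed as markers of green tissue summed to 283 to 333, 437 to 493 and 320.2 to 422 FPKM in *zmccd8* under 0N, WS and CT and to 287 to 307, 396 to 446 and 319 to 385 FPKM in WT under 0N, WS and CT, with 10 to 17 of them listed at 0 in every library of a group. Most of this was phosphoenolpyruvate carboxylase (10 genes, 211 to 461 FPKM per library), which roots also use. The 31 chlorophyll a-b binding protein genes of the list, looked at after its sums were known, came to 6.24 to 23.3, 7.42 to 9.99 and 17.8 to 24.7 FPKM in *zmccd8* under 0N, WS and CT and to 7.63 to 14.7, 12.9 to 31.2 and 41.8 to 102 FPKM in WT under 0N, WS and CT. The sums of the 7 Casparian strip genes thus lay below those of CT under 0N and WS in both genotypes. Those of the 45 endodermis markers did so too, except that WT under 0N overlapped CT. The sum of the green list lay above those of CT under WS, and the chlorophyll a-b binding sums were highest in WT under CT. The part of these shifts in the results was not tested. In these whole-root samples, fewer cells of a type and less RNA per cell cannot be told apart.

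A gene was called where limma gave a Benjamini-Hochberg adjusted p of 0.05 or less over all 27530 features tested and a difference of at least 1 in log2(FPKM + 1), a scale that understates changes of genes with low FPKM. In all, 14 members were called in at least 1 of the 9 comparisons and 24 of the members tested were called in none. Under 0N, 6 members were called in *zmccd8* (4 higher and 2 lower) and 3 in WT (1 higher and 2 lower), where the share of all features called was 7.37% (1.74% higher and 5.63% lower) and 4.76% (1.94% higher and 2.82% lower). Under WS, 8 members were called in *zmccd8* (7 higher and 1 lower) and 10 in WT (5 higher and 5 lower), against 16.6% (6.24% higher and 10.3% lower) and 17.8% (7.41% higher and 10.4% lower) of all features. The median difference over the 38 members in log2(FPKM + 1) was 0.09 and -0.05 under 0N in *zmccd8* and WT and 0.03 and -0.05 under WS in *zmccd8* and WT, beside medians between -0.01 and 0.01 over all features. The signs of the WS medians are not stable: they turned with 1 library left out (to 0.04, 0.02 and 0.02 without WT CT replicate 1, WT WS replicate 1 or WT WS replicate 3, and to -0.01 without *zmccd8* CT replicate 1) and, in *zmccd8*, to -0.17 with genes averaging under 5 FPKM left out. Called members lay in both directions in each treatment. Under 0N, however, the only members called lower, in either genotype, were the 2 nitrite reductases caught by a domain name alone. The comparisons of 0N and WS within a genotype share their CT libraries.

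**Figure D1:**
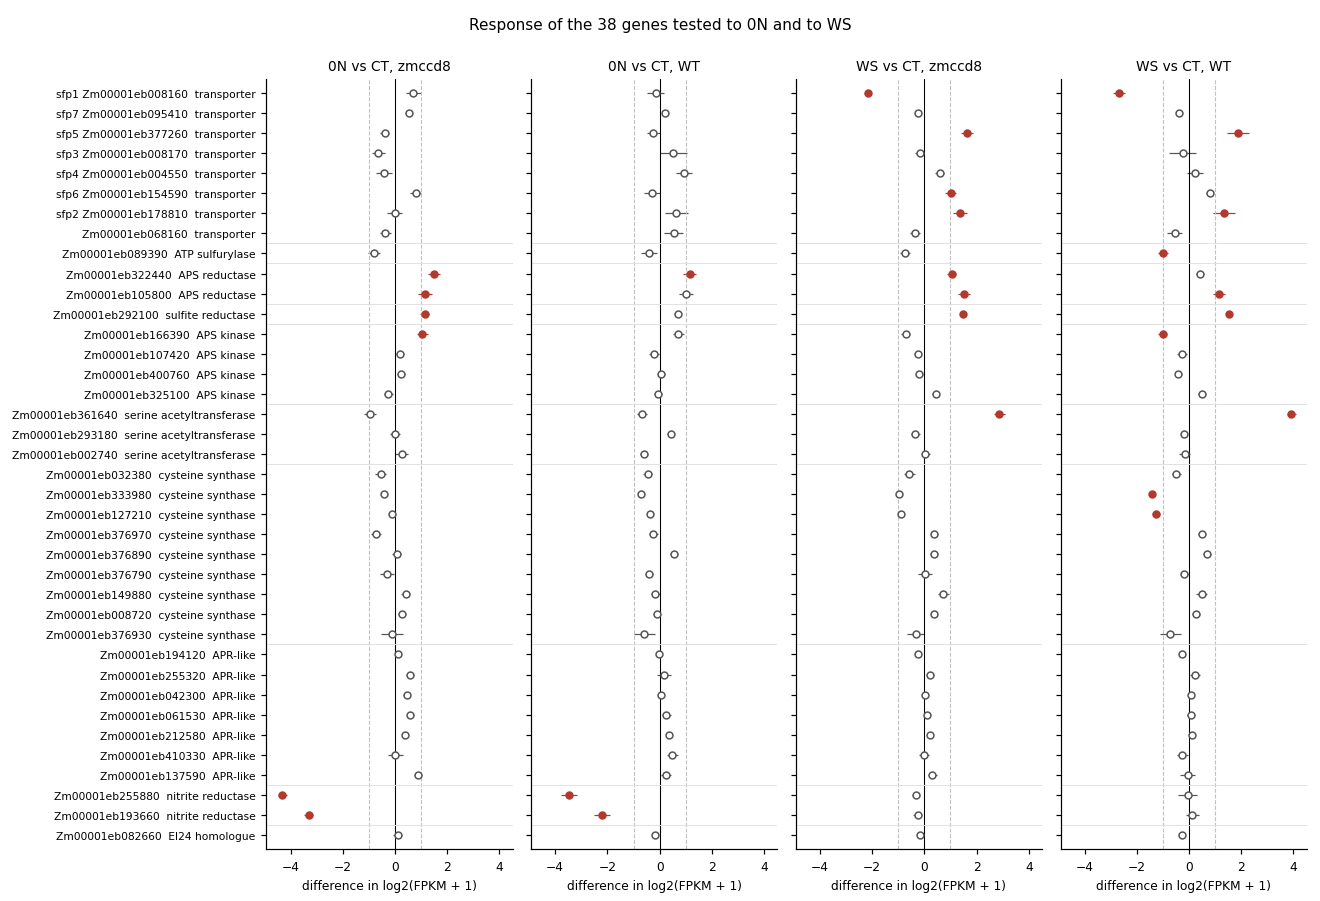
Differences in log2(FPKM + 1) between 0N and CT and between WS and CT in *zmccd8* and WT, with the standard error, for the 38 members tested, grouped by role. Filled red points are the called genes, and dashed lines mark a difference of 1; the serine acetyltransferase Zm00001eb361640 stands farthest to the right under WS and the 2 nitrite reductases farthest to the left under 0N.

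Among the sulfate transporters, *sfp5* had the highest mean FPKM under WS and *sfp1* the highest under CT, in both genotypes. *sfp1* (Zm00001eb008160, chr1:24553476-24560627) is a homologue of the high-affinity carrier SULTR1;3 and was the transporter with the highest mean level. It had 6.30, 6.33 and 7.10 FPKM in *zmccd8* under WS, against 38, 35.8 and 26.9 FPKM in *zmccd8* under CT. In WT it had 6.10, 4.71 and 4.69 FPKM under WS, against 46.1, 45.7 and 26.9 FPKM under CT. All 6 WS libraries lay below all 6 CT libraries, and the gene fell under WS, with log2 differences of -2.18 ± 0.15 in *zmccd8* (limma, adjusted p = 0.000123) and -2.69 ± 0.23 in WT (adjusted p = 0.000443; standard errors throughout, n = 3 per group). Under 0N its levels were 47.6, 84.4 and 40.9 FPKM in *zmccd8* and 30.4, 24.5 and 54.3 FPKM in WT, and it was not called against CT (log2 difference 0.71 ± 0.28 in *zmccd8* and -0.16 ± 0.34 in WT).

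*sfp5* (Zm00001eb377260, chr9:22180911-22186039), a homologue of Arabidopsis SULTR3;4, did the opposite under WS. It had 45.1, 45.5 and 27.4 FPKM in *zmccd8* under WS, against 11.6, 14.2 and 9.41 FPKM in *zmccd8* under CT. WT roots had 34.0, 63.6 and 18.0 FPKM under WS, against 10.2, 9.62 and 6.39 FPKM under CT. The groups did not overlap in either genotype, although the WT libraries under WS were widely spread. The mean level was 3.36 times that of CT in *zmccd8* and 4.41 times in WT, with log2 differences of 1.65 ± 0.23 (limma, adjusted p = 0.00199) and 1.87 ± 0.43 (adjusted p = 0.016). The WT call was lost without WT WS replicate 1 or WT CT replicate 3 (highest adjusted p = 0.0545). Under 0N, *sfp5* stayed within 5.19 to 9.91 FPKM over both genotypes and was not called.

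*sfp2* (Zm00001eb178810, chr4:78638685-78642724), a second SULTR1;3 homologue with a lower level, had 14, 9.69 and 15.0 FPKM in *zmccd8* under WS, against 3.50, 6.77 and 3.38 FPKM in *zmccd8* under CT. The WT libraries had 9.20, 14.3 and 6.30 FPKM under WS, against 3.61, 5.37 and 1.37 FPKM under CT. So the 2 genes annotated as SULTR1;3 moved in opposite directions under WS, *sfp1* down and *sfp2* up by 1.35 ± 0.27 on the log2 scale in *zmccd8* (limma, adjusted p = 0.00826) and by 1.34 ± 0.42 in WT (adjusted p = 0.0448). The WT call for *sfp2* was close to the threshold. It was lost with a pseudocount of 0.1, without the filter on low values, and without WT CT replicate 1 or 3 or WT WS replicate 1 or 2 (highest adjusted p = 0.12).

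*sfp6* (Zm00001eb154590, chr3:207302145-207307321), annotated as a SULTR3;1 homologue, had 5.69, 6.10 and 8.18 FPKM in *zmccd8* under WS, against 3.48, 2.93 and 2.06 FPKM in *zmccd8* under CT. The increase of 1.01 ± 0.20 on the log2 scale was called (limma, adjusted p = 0.00911), and was lost without *zmccd8* CT replicate 3 or *zmccd8* WS replicate 3. Its WT levels were 11.4, 15.2 and 13.8 FPKM under WS, against 7.83, 7.66 and 6.68 FPKM under CT, a log2 difference of 0.78 ± 0.15 (adjusted p = 0.00769) that was below the fold limit. WS and CT libraries did not overlap in either genotype. Under 0N the gene had 5.17, 6.09 and 5.43 FPKM in *zmccd8*, all above the CT libraries, with a log2 difference of 0.80 ± 0.20 (adjusted p = 0.0435) that was below the fold limit and was called with voom (1.04, adjusted p = 0.0264). In WT under 0N it had 3.87, 9.94 and 4.79 FPKM, which overlapped CT, and was not called.

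The other 4 transporters tested were not called in any comparison. *sfp7* (Zm00001eb095410), a homologue of the vacuolar exporter SULTR4;1, ranged between 19.1 and 42.9 FPKM over all libraries. Its log2 difference under 0N in *zmccd8* was 0.52 ± 0.13 (limma, adjusted p = 0.0428) and under WS in WT -0.39 ± 0.12 (adjusted p = 0.0368), both below the fold limit. *sfp3* (Zm00001eb008170), the neighbour of *sfp1* on chromosome 1 and annotated as a low-affinity transporter of *Stylosanthes hamata*, *sfp4* (Zm00001eb004550) and a SULTR3;3 homologue (Zm00001eb068160) had adjusted p-values above 0.05 in the 4 treatment comparisons, except for *sfp4* under WS in *zmccd8* (0.59 ± 0.18, adjusted p = 0.0437). The ninth transporter, a SULTR1;2 homologue (Zm00001eb401100), did not exceed 1.32 FPKM and was not tested. Summed over the 9 genes, transporter levels were 135 ± 23.3 FPKM under 0N, 122 ± 11.2 FPKM under WS and 111 ± 11.8 FPKM under CT in *zmccd8*, and 133 ± 6.41, 114 ± 36.4 and 116 ± 32.4 FPKM in WT in the same order (SD, n = 3). The sums overlapped between the regimes, although *sfp1* fell and *sfp5* rose under WS.

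**Figure D2:**
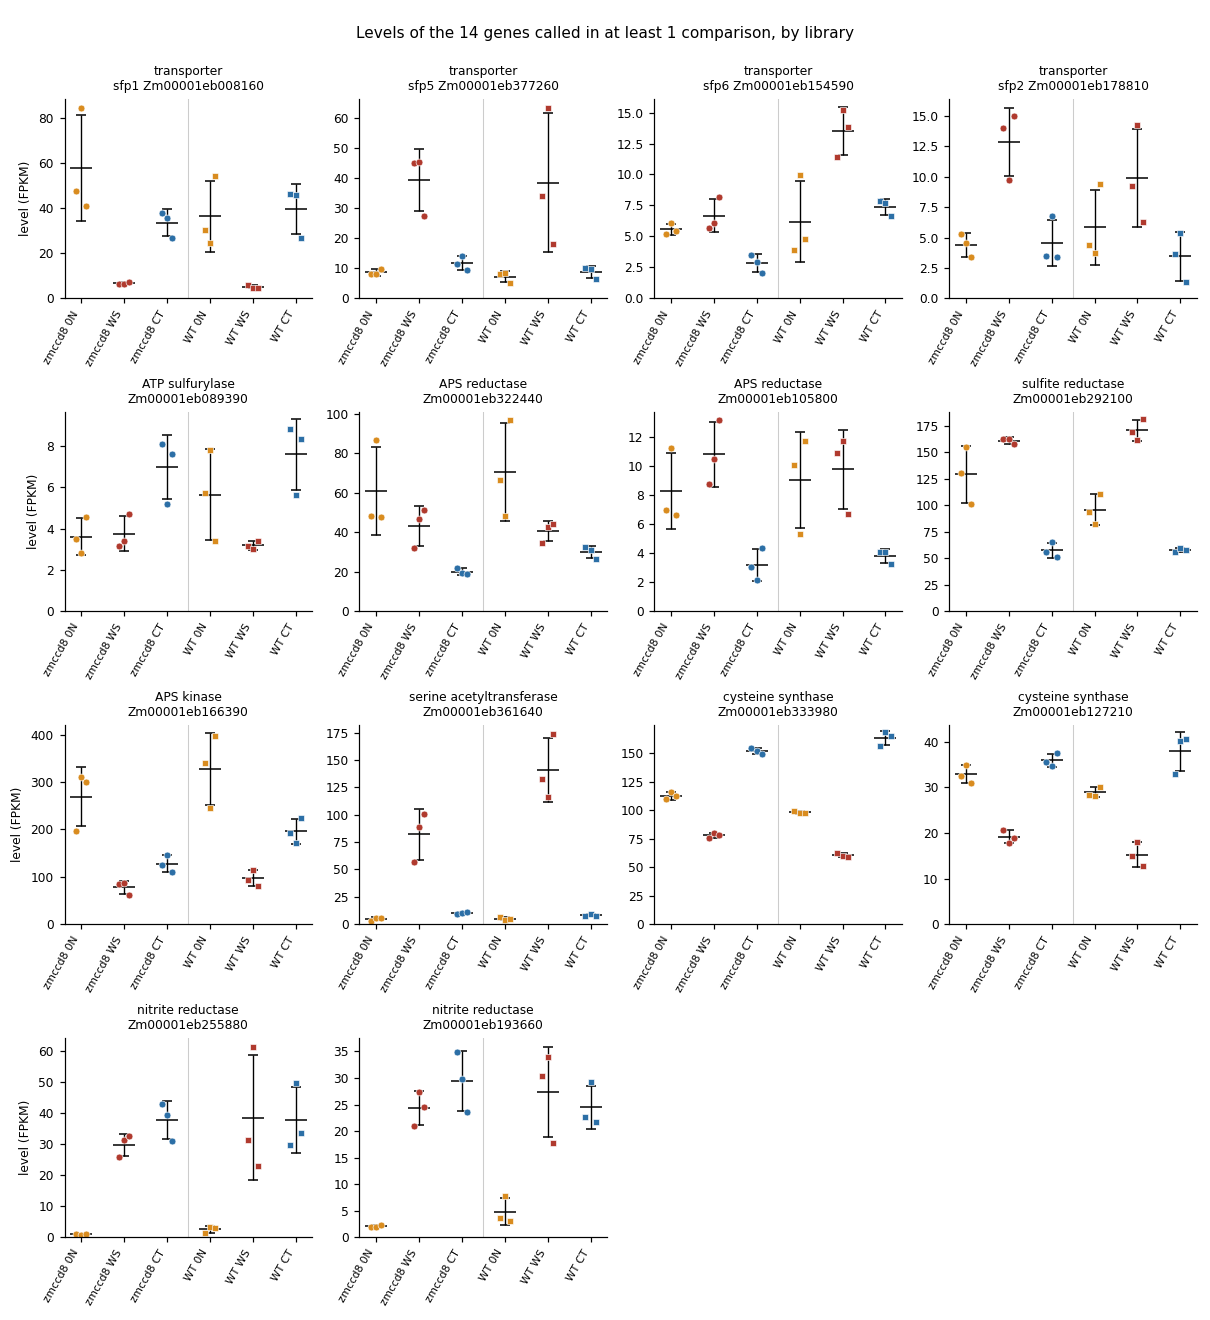
FPKM in each library (coloured points) with the mean and SD of the 3 libraries (black) for the 14 members called in at least 1 comparison, in *zmccd8* (circles, left) and WT (squares, right) under 0N, WS and CT. *sfp1* lies between 4.69 and 7.10 FPKM in the 6 WS libraries, and the nitrite reductase Zm00001eb255880 between 0.789 and 3.24 FPKM in the 6 0N libraries.

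ATP sulfurylase, the step that activates sulfate, was represented among the members by low-level genes. The ATP sulfurylase 2 homologue (Zm00001eb089390, chr2:115958214-115966591) had 3.14, 3.41 and 4.70 FPKM in *zmccd8* under WS, against 8.11, 5.20 and 7.59 FPKM in *zmccd8* under CT. In WT it had 3.15, 3.01 and 3.42 FPKM under WS, against 8.83, 5.61 and 8.32 FPKM under CT. It fell in WT, with a log2 difference of -1.01 ± 0.19 (limma, adjusted p = 0.00781), a call that was lost without WT CT replicate 1 or 3 or WT WS replicate 2. In *zmccd8* the log2 difference of -0.74 ± 0.21 (adjusted p = 0.0301) was below the fold limit. Its 0N levels were 3.47, 2.82 and 4.55 FPKM in *zmccd8* and 5.73, 7.83 and 3.39 FPKM in WT, without a call. The other 5 members of this step, all annotated as ATP sulfurylase 1, did not exceed 1.00 FPKM in any library and were not tested.

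Most ATP sulfurylase transcript came from 2 genes annotated as ATP-sulfurylase 3 that the description search missed because of the hyphen, and that were looked at after the values of the members were known. Zm00001eb215080 averaged 253 ± 68.3 FPKM under 0N, 166 ± 9.94 FPKM under WS and 168 ± 11.7 FPKM under CT in *zmccd8*, and 250 ± 39.4, 188 ± 9.66 and 199 ± 51.0 FPKM in WT in the same order (SD, n = 3). It was not called in any comparison, and its log2 difference was 0.55 ± 0.22 under 0N and -0.02 ± 0.11 under WS in *zmccd8*, and 0.35 ± 0.24 and -0.05 ± 0.21 in WT. The second gene, Zm00001eb056910, had a lower level and similar differences (0.66 ± 0.21 and 0.06 ± 0.12 in *zmccd8*, 0.52 ± 0.24 and 0.09 ± 0.23 in WT) and was not called either.

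APS reductase commits sulfate to reduction, and at least 1 of its 2 genes rose in each treatment and genotype. Zm00001eb322440 (chr7:161352287-161355662), the APS reductase gene with the higher level, had 48.4, 86.6 and 47.6 FPKM in *zmccd8* under 0N, 31.8, 46.6 and 51.1 FPKM in *zmccd8* under WS, against 21.8, 19.5 and 18.9 FPKM in *zmccd8* under CT. WT roots had 66.4, 48.0 and 97 FPKM under 0N and 34.6, 42.8 and 44.0 FPKM under WS, against 32.5, 31.0 and 26.4 FPKM under CT. Every 0N and WS library of a genotype lay above its CT libraries.

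Under 0N the increase of Zm00001eb322440 was 1.5 ± 0.24 on the log2 scale in *zmccd8* (3.03 times the CT mean; limma, adjusted p = 0.0227) and 1.15 ± 0.25 in WT (2.35 times; adjusted p = 0.0429). Under WS it was 1.04 ± 0.18 in *zmccd8* (adjusted p = 0.00483), and in WT the log2 difference was 0.42 ± 0.14 (adjusted p = 0.0525) and was not called. The difference between the genotypes in the WS response, 0.62 ± 0.24, was not called (adjusted p = 0.547). The WT 0N call was fragile: it was lost without the filter on low values, with a replicate block (adjusted p = 0.0934) and without any of the 3 WT CT libraries or WT 0N replicate 1 or 3 (highest adjusted p = 0.125). The *zmccd8* calls were lost without *zmccd8* CT replicate 1 or 3 or 0N replicate 1 (0N) and without WS replicate 2 or 3 (WS).

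The second APS reductase (Zm00001eb105800, chr2:209182240-209185565) was lower in level. It had 6.96, 11.3 and 6.62 FPKM in *zmccd8* under 0N, 8.74, 10.5 and 13.2 FPKM in *zmccd8* under WS, against 3.08, 2.14 and 4.36 FPKM in *zmccd8* under CT. The WT libraries had 10.1, 5.34 and 11.8 FPKM under 0N and 10.9, 11.7 and 6.69 FPKM under WS, against 4.07, 4.10 and 3.27 FPKM under CT. Again no 0N or WS library reached down to the CT range of its genotype.

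Under WS, Zm00001eb105800 rose by 1.51 ± 0.24 on the log2 scale in *zmccd8* (limma, adjusted p = 0.0032) and by 1.13 ± 0.22 in WT (adjusted p = 0.00932), the WT call being lost without WT WS replicate 2. Under 0N it rose by 1.15 ± 0.28 in *zmccd8* (adjusted p = 0.042), while the WT difference of 1.01 ± 0.28 had an adjusted p of 0.0712. The *zmccd8* 0N call was lost without the filter on low values, with a replicate block (adjusted p = 0.0569) and without any *zmccd8* CT library or 0N replicate 1 or 2 (highest adjusted p = 0.128). The WT 0N difference was called when genes with a mean under 5 FPKM were left out (adjusted p = 0.0469) and when all 18 libraries entered a single fit (adjusted p = 0.0202).

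Sulfite reductase (Zm00001eb292100, chr6:168474433-168479714) is the single member so annotated and makes the sulfide that enters cysteine. It had 131, 155 and 102 FPKM in *zmccd8* under 0N, 163, 163 and 157 FPKM in *zmccd8* under WS, against 56.2, 65.0 and 51.1 FPKM in *zmccd8* under CT. Its WT levels were 94.0, 82.0 and 111 FPKM under 0N and 169, 162 and 181 FPKM under WS, against 56.1, 59.9 and 58.2 FPKM under CT. In each genotype the CT libraries were lowest and the WS libraries highest, with no overlap among the 3 regimes. The increase under WS was 1.48 ± 0.12 on the log2 scale in *zmccd8* (2.80 times the CT mean; limma, adjusted p = 0.000204) and 1.54 ± 0.11 in WT (2.94 times; adjusted p = 0.000215), and both calls were kept without any single library.

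Under 0N sulfite reductase rose by 1.14 ± 0.18 on the log2 scale in *zmccd8* (limma, adjusted p = 0.0229), a call lost without *zmccd8* CT replicate 1 or 3 or 0N replicate 1 or 2. In WT the difference of 0.70 ± 0.13 had an adjusted p of 0.0324 and was below the fold limit. The interaction of genotype and 0N was 0.44 ± 0.23 (adjusted p = 0.345), so a difference between the genotypes was not shown.

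APS kinase stands at the branch that leads to PAPS and sulfated compounds, and 1 of its 4 genes was called, as higher under 0N in *zmccd8* and as lower under WS in WT. Zm00001eb166390 (chr4:5769119-5771070), an APK3 homologue and the member with the highest mean level, had 198, 310 and 299.8 FPKM in *zmccd8* under 0N, 84.5, 87.4 and 61.9 FPKM in *zmccd8* under WS, against 124, 147 and 111 FPKM in *zmccd8* under CT. In WT it had 340, 246 and 397 FPKM under 0N and 93.9, 115 and 81.7 FPKM under WS, against 192, 172 and 224 FPKM under CT. The 3 regimes did not overlap in either genotype.

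The 0N increase of Zm00001eb166390 was called in *zmccd8* (1.05 ± 0.22 on the log2 scale; limma, adjusted p = 0.0329), whereas the WT difference of 0.72 ± 0.22 was not (adjusted p = 0.0917). The WS decrease was called in WT (-1.01 ± 0.18, adjusted p = 0.00584), and in *zmccd8* the difference of -0.71 ± 0.17 passed the adjusted p (0.0177) but not the fold limit. The interactions with genotype were 0.33 ± 0.32 for 0N and 0.30 ± 0.25 for WS, neither called (adjusted p = 0.594 and 0.809). The *zmccd8* call was lost without *zmccd8* CT replicate 1 or 3 or any 0N replicate, and the WT call without WT CT replicate 3 or WS replicate 1 or 3. The other 3 APS kinase genes had levels between 3.26 and 13.1 FPKM and were not called in any comparison.

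The largest difference of any member under WS was that of a serine acetyltransferase. Zm00001eb361640 (chr8:159516055-159517439), annotated as the rice enzyme SAT1, had 56.4, 88.7 and 101 FPKM in *zmccd8* under WS, against 9.02, 9.91 and 11.3 FPKM in *zmccd8* under CT. WT roots had 133, 116 and 174 FPKM under WS, against 7.72, 9.52 and 7.80 FPKM under CT. The lowest WS library thus stood at several times the highest CT library in both genotypes. The mean level was 8.14 times that of CT in *zmccd8* and 16.9 times in WT, and the log2 increase was 2.87 ± 0.22 (limma, adjusted p = 0.000177) and 3.91 ± 0.17 (adjusted p = 3.64e-05). Both calls held in all 9 alternative settings, of which the adjusted p alone could lose none, and without any single library.

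Under 0N the same gene had 3.20, 5.25 and 5.85 FPKM in *zmccd8* and 6.28, 3.84 and 4.64 FPKM in WT, all below the CT libraries of the same genotype. The log2 difference was -0.97 ± 0.22 in *zmccd8* (limma, adjusted p = 0.0381), just short of the fold limit, and -0.67 ± 0.19 in WT (adjusted p = 0.0757). In *zmccd8* it was called with a pseudocount of 0.1 (-1.10, adjusted p = 0.0441), with voom on the rebuilt reads (-1.09, adjusted p = 0.0305) and without *zmccd8* 0N replicate 3. The difference in the WS response, *zmccd8* minus WT, was -1.04 ± 0.29 on the log2 scale, but this interaction was not called (adjusted p = 0.398).

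The other 2 serine acetyltransferases, Zm00001eb293180 (homologous to rice SAT5) and Zm00001eb002740 (SAT2), lay between 6.27 and 27.0 FPKM and were not called in any comparison, so that the summed level of the 3 genes under WS (106 ± 25.4 FPKM in *zmccd8* and 166 ± 29.3 FPKM in WT, against 37.7 ± 1.75 and 36.5 ± 1.29 FPKM under CT; SD, n = 3) followed Zm00001eb361640.

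Of the cysteine synthases, which use the product of serine acetyltransferase, 2 fell under WS in WT. None was called higher, although the S-sulfocysteine synthase homologue Zm00001eb149880, at 0.72 ± 0.22 under WS in *zmccd8* (limma, adjusted p = 0.0385), was called with a pseudocount of 0.1 (1.17, adjusted p = 0.0437) and with voom (1.25, adjusted p = 0.0428). Zm00001eb333980 (chr8:6894037-6897523), annotated as a plastid enzyme and called *cys1* among the RefSeq synonyms, had 75.2, 80.2 and 78.0 FPKM in *zmccd8* under WS, against 154, 152 and 149 FPKM in *zmccd8* under CT. The WT libraries had 62.6, 60.1 and 58.8 FPKM under WS, against 156, 168 and 165 FPKM under CT. The 0N libraries lay between, at 109, 116 and 112 FPKM in *zmccd8* and 99.0, 97.8 and 97.1 FPKM in WT, and no library of 1 regime entered the range of another.

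The WS decrease of Zm00001eb333980 was called in WT (-1.42 ± 0.10 on the log2 scale; limma, adjusted p = 0.000256) and kept without any single library. In *zmccd8* the difference was -0.95 ± 0.09 (adjusted p = 0.000471), just short of the fold limit, and the interaction of 0.46 ± 0.14 was not called (adjusted p = 0.432). Under 0N the differences were -0.43 ± 0.11 in *zmccd8* (adjusted p = 0.0443) and -0.73 ± 0.10 in WT (adjusted p = 0.0153), again below the fold limit.

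A second plastid-type cysteine synthase, Zm00001eb127210 (chr3:33703083-33711318), had 20.6, 17.8 and 19.0 FPKM in *zmccd8* under WS, against 35.6, 34.6 and 37.4 FPKM in *zmccd8* under CT. Its WT levels were 15.0, 18.0 and 12.7 FPKM under WS, against 33.0, 40.2 and 40.5 FPKM under CT. WS and CT libraries were apart in both genotypes, and the log2 difference was -1.27 ± 0.16 in WT, where it was called (limma, adjusted p = 0.00168) and kept without any single library. In *zmccd8* the difference was -0.88 ± 0.10 (adjusted p = 0.000827). Under 0N it had 32.5, 34.9 and 31.0 FPKM in *zmccd8* and 28.4, 28.1 and 30.1 FPKM in WT, without a call.

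The cysteine synthase with the highest level, the maize cysteine synthase gene Zm00001eb032380 (chr1:181119251-181123940, synonym *cys2*), was not called. It had 98.3, 108 and 111 FPKM under 0N, 102, 97 and 112 FPKM under WS and 158, 114 and 207 FPKM under CT in *zmccd8*, and 105, 124 and 93.8 FPKM, 100.2, 93.3 and 123 FPKM and 160, 158 and 126 FPKM in WT in the same order. All 0N and WS libraries of a genotype lay below its CT libraries, with log2 differences between -0.46 and -0.58 and adjusted p-values of 0.0569 to 0.115. Over the 11 genes, the summed level was 265 ± 10.6 FPKM under 0N, 222 ± 8.05 FPKM under WS and 364 ± 46.4 FPKM under CT in *zmccd8*, and 250 ± 13.9, 205 ± 12.6 and 368 ± 15.2 FPKM in WT in the same order (SD, n = 3).

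The remaining cysteine synthases were of low level, at most 10.2 FPKM. Of these, 5 lie within chr9:20969937-21192571 (Zm00001eb376790, Zm00001eb376890, Zm00001eb376900, Zm00001eb376930 and Zm00001eb376970). Since neighbouring copies may share reads, their separate values are uncertain, and none was called. Zm00001eb376890 differed by 0.70 ± 0.15 on the log2 scale under WS in WT (limma, adjusted p = 0.0111), below the fold limit. Zm00001eb083230 was listed at 0 in all 18 libraries.

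**Figure D3:**
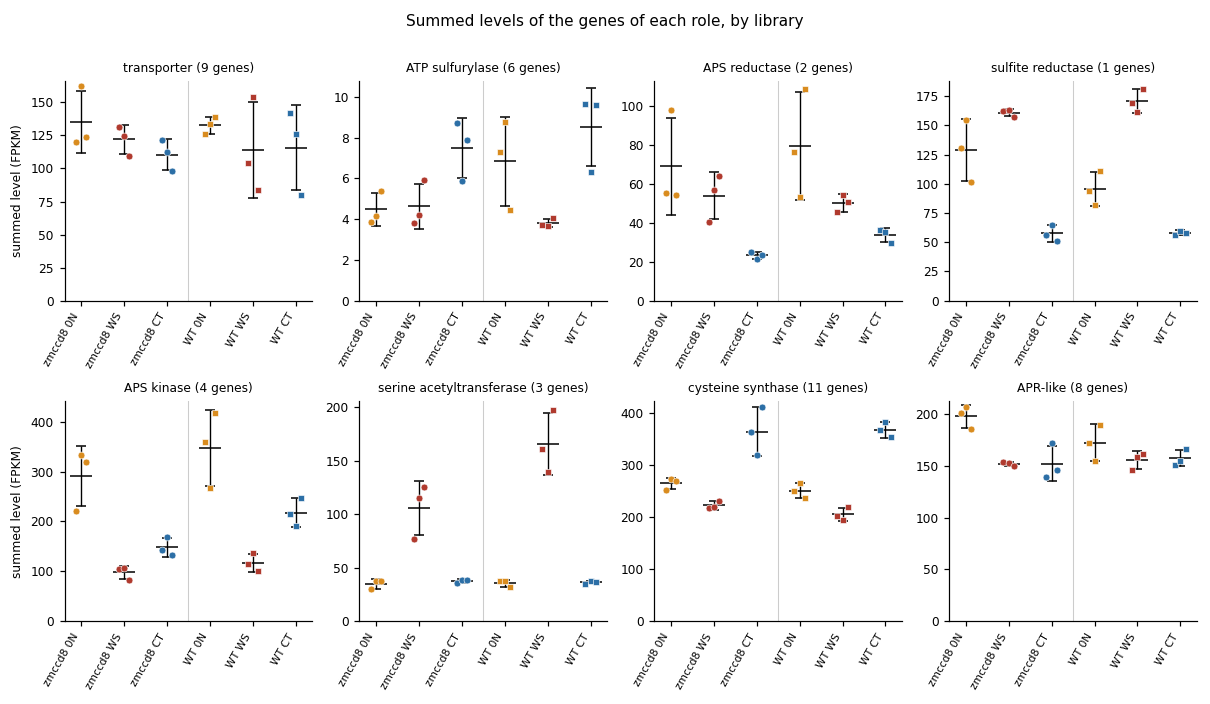
FPKM summed over the members of each of the 8 roles of the pathway, in each library (coloured points) with the mean and SD of the 3 libraries (black), in *zmccd8* (circles, left) and WT (squares, right) under 0N, WS and CT. Under WS, serine acetyltransferase sums (77.1 to 197 FPKM) lay above and cysteine synthase sums (194 to 231 FPKM) below those of CT, and APR-like (APS reductase-like) sums stayed between 139 and 207 FPKM throughout.

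The APS reductase-like genes, which resemble APS reductase in rice but lie outside the assimilation route proper, gave no call, as none of the 7 tested was called in any of the 9 comparisons. The gene with the highest level, Zm00001eb194120 (APRL3 homologue, chr4:185488130-185490356), had 69.3, 67.1 and 60.3 FPKM under 0N, 52.1, 48.3 and 48.9 FPKM under WS and 56.6, 66.0 and 57.4 FPKM under CT in *zmccd8*. In WT it had 61.6, 55.3 and 52.8 FPKM under 0N, 48.1, 45.8 and 49.7 FPKM under WS and 57.2, 60.1 and 56.4 FPKM under CT. The WS libraries were lowest in both genotypes, with log2 differences of -0.26 ± 0.10 and -0.27 ± 0.10 that were not called. The farthest of the role was Zm00001eb137590 (APRL6 homologue) under 0N in *zmccd8*, at 0.89 ± 0.16 (limma, adjusted p = 0.0275), which was called with a pseudocount of 0.1 and with voom.

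The EI24 homologue (Zm00001eb082660), annotated with a domain of a bacterial sulfate transporter, ranged from 21.7 to 33.0 FPKM over all libraries and was not called. It had 29.8, 33.0 and 22.3 FPKM under 0N, 24.6, 21.7 and 22.7 FPKM under WS and 22.7, 28.7 and 26.8 FPKM under CT in *zmccd8*, and 24.4, 27.1 and 25.5 FPKM, 24.3, 23.6 and 25.8 FPKM and 28.2, 29.3 and 30.8 FPKM in WT in the same order.

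The 2 nitrite reductases, which make ammonium from nitrite in plastids and are known to be induced by nitrate, gave the lowest log2 differences of the members under 0N. Zm00001eb255880 (chr5:218273575-218276600) had 0.905, 0.789 and 1.10 FPKM in *zmccd8* under 0N, against 42.9, 39.5 and 30.9 FPKM in *zmccd8* under CT. WT roots had 1.33, 3.24 and 2.98 FPKM under 0N, against 29.7, 49.8 and 33.7 FPKM under CT. The groups were far apart, the CT mean being 40.5 times that of 0N in *zmccd8* and 15.0 times in WT. The log2 difference was -4.32 ± 0.18 in *zmccd8* (limma, adjusted p = 0.000484) and -3.48 ± 0.30 in WT (adjusted p = 0.00491), each kept without any single library.

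Zm00001eb193660 (chr4:183572540-183576081) had 1.93, 1.98 and 2.23 FPKM in *zmccd8* under 0N, against 34.9, 29.8 and 23.5 FPKM in *zmccd8* under CT. The WT libraries had 3.60, 7.82 and 3.03 FPKM under 0N, against 22.7, 29.2 and 21.7 FPKM under CT. It fell, with log2 differences of -3.30 ± 0.18 in *zmccd8* (limma, adjusted p = 0.00216) and -2.21 ± 0.31 in WT (adjusted p = 0.0151), the WT call being lost without WT 0N replicate 1 (adjusted p = 0.0654). Under WS the 2 genes had 17.8 to 61.3 FPKM over both genotypes and were not called. The interactions of genotype and 0N, -0.84 ± 0.35 and -1.09 ± 0.37, were not called either (adjusted p = 0.258 and 0.2).

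Set side by side in the order of the pathway, the WS calls in both genotypes were *sfp1* down, *sfp5* and *sfp2* up, the APS reductase Zm00001eb105800 up, sulfite reductase up and the serine acetyltransferase Zm00001eb361640 up. These 6 genes were the calls common to *zmccd8* and WT, while 2 were called in *zmccd8* alone and 4 in WT alone. All 12 had the same direction in both genotypes. Under 0N, 3 members were called in both genotypes (the APS reductase Zm00001eb322440 and the 2 nitrite reductases) and 3 in *zmccd8* alone, and all 6 had the same direction in both.

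Counting only whether the 3 libraries of a treatment were all above or all below those of CT, the groups did not overlap for 21 of the 38 members under 0N in *zmccd8* (44.7% of all features) and for 17 in WT (37.3%). Under WS they did not overlap for 22 members in *zmccd8* (51.4% of all features) and for 24 in WT (53.3%). With the adjusted p alone and no fold limit, 12 members passed under 0N in *zmccd8* (16.4% of all features) and 5 in WT (8.95%). Under WS 15 passed in *zmccd8* (36.7%) and 15 in WT (37.8%).

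The genotypes were then compared within each regime. No member was called between *zmccd8* and WT under 0N (1.57% of all features called), under WS (0.901%) or under CT (0.835%), by limma. At an unadjusted limma p under 0.05, 8 of the 38 members passed under 0N, 5 under WS and 4 under CT. Of all 27530 features, 7383, 3719 and 2033 passed in the same order. Voom called 0 members under 0N, 1 under WS and 1 under CT, beside 419, 269 and 232 of all features. The interactions of genotype with 0N and with WS gave no call among the members (0% and 0.0218% of all features called), and none by voom. At an unadjusted limma p under 0.05 were 10 and 3 of the 38 members, beside 4804 and 2185 of the 27530 features. The 3 libraries of *zmccd8* and WT did not overlap for 11 members under 0N (32.4% of all features), 9 under WS (20%) and 4 under CT (12.1%).

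**Figure D4:**
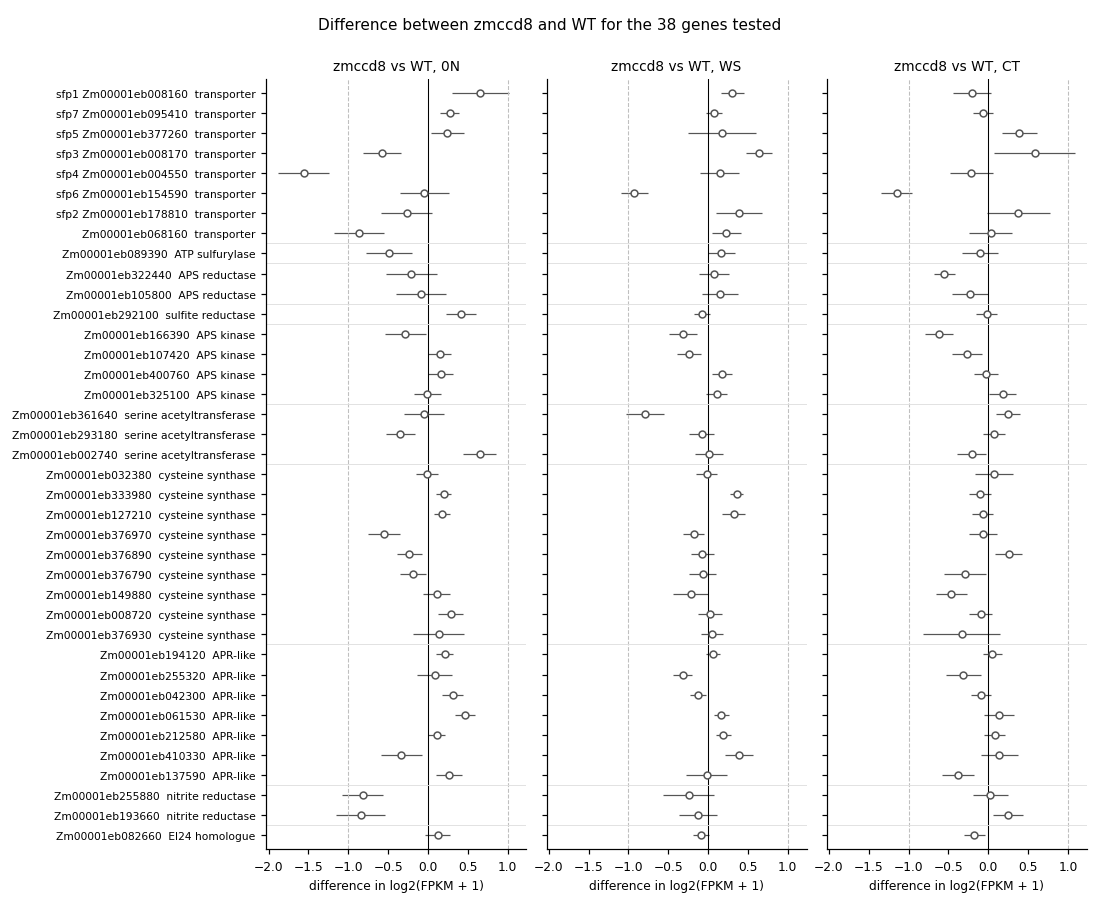
Differences in log2(FPKM + 1) between *zmccd8* and WT under 0N, WS and CT, with the standard error, for the 38 members tested, grouped by role. No point is filled, since no member was called; *sfp6* stands at -1.15 under CT and -0.93 under WS, and *sfp4* at -1.56 under 0N.

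The 2 members farthest apart between the genotypes were sulfate transporters annotated as SULTR3;1. *sfp6* had 5.69, 6.10 and 8.18 FPKM in *zmccd8* under WS, against 11.4, 15.2 and 13.8 FPKM in WT under WS, and 3.48, 2.93 and 2.06 FPKM in *zmccd8* under CT, against 7.83, 7.66 and 6.68 FPKM in WT under CT. The genotypes did not overlap in these regimes, while under 0N they did. The log2 differences were -0.93 ± 0.17 under WS (limma, adjusted p = 0.0649), -1.15 ± 0.19 under CT (adjusted p = 0.0514) and -0.04 ± 0.31 under 0N. The CT difference was called when all 18 libraries entered a single fit (adjusted p = 0.0179), with genes averaging under 5 FPKM left out (0.0398), without a variance trend (0.0411) and with voom (0.0316), and the WS difference with voom (0.0393).

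*sfp6* lies on chromosome 3 between 140 and 210 Mb, a segment chosen because earlier results of these data had placed many differences between the genotypes there. As a description only, 14.6% of the 1130 genes tested there were called under 0N, 11.2% under WS and 11.3% under CT, against 1.02%, 0.462% and 0.386% elsewhere. Since these data chose the segment, the shares lend nothing to the difference of *sfp6*, which was -0.04 ± 0.31 under 0N. The S-sulfocysteine synthase homologue Zm00001eb149880 lies there too and was not called (-0.46 ± 0.19 under CT, limma, adjusted p = 0.667). Whether a difference of *sfp6* goes with the *ZmCCD8* insertion or with other sequence differences in the segment cannot be told apart in these libraries.

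*sfp4* (Zm00001eb004550, chr1:12441876-12448043) had 7.16, 4.75 and 11.2 FPKM in *zmccd8* under 0N, against 24.2, 30.9 and 17.4 FPKM in WT under 0N. The groups did not overlap, and the log2 difference of -1.56 ± 0.32 was short of the threshold (limma, adjusted p = 0.0635). It was called with all 18 libraries in a single fit (adjusted p = 0.00492) and without *zmccd8* 0N replicate 3 (adjusted p = 0.0378). Under WS it had 16.6, 18.2 and 13.0 FPKM in *zmccd8* and 14, 20 and 10 FPKM in WT, and the difference was 0.15 ± 0.24.

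The neighbouring steps of sulfur metabolism were read from lists of annotation terms. Of 10 genes of glutathione synthesis, 6 were tested and 1 was called, as higher under 0N in *zmccd8* (1.74% of all features). This was a glutamate-cysteine ligase (Zm00001eb354890), the enzyme that joins cysteine to glutamate. It had 279, 286 and 247 FPKM in *zmccd8* under 0N, against 114, 145 and 101 FPKM in *zmccd8* under CT, a log2 difference of 1.18 ± 0.17 (limma, adjusted p = 0.0206). Its WT levels were 230, 199 and 246 FPKM under 0N, against 122, 124 and 109 FPKM under CT, without a call, although the groups did not overlap. The list had medians of 0.36 in *zmccd8* and 0.16 in WT under 0N on the log2 scale, beside medians of -0.01 and 0.00 over all features.

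Of 8 genes of methionine synthesis, 7 were tested and 2 fell under WS in both genotypes. Of all features, 10.3% were called lower under WS in *zmccd8* and 10.4% in WT. The list median under WS was 0.18 in *zmccd8* and 0.00 in WT on the log2 scale, beside medians between -0.01 and 0.00 over all features. Both genes that fell were annotated as cystathionine gamma-synthase, which draws cysteine into methionine. Zm00001eb392050 had 55.5, 58.0 and 57.6 FPKM in *zmccd8* under WS, against 179, 215 and 185 FPKM in *zmccd8* under CT. In WT it had 57.6, 49.2 and 70.8 FPKM under WS, against 209, 274 and 177 FPKM under CT. The groups were well apart, with log2 differences of -1.74 ± 0.11 in *zmccd8* (limma, adjusted p = 8.64e-05) and -1.87 ± 0.21 in WT (adjusted p = 0.00118). The second gene, Zm00001eb048610, had at most 0.392 FPKM under WS and differed by -1.13 ± 0.22 and -1.40 ± 0.26 (limma, adjusted p = 0.00843 and 0.0071). It passed the filter only through CT and 0N libraries, so its calls as lower under WS are not fully independent of the filter. No gene of the list was called under 0N.

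Of 15 genes that mark sulfur limitation in other plants, 11 were tested. RESPONSE TO LOW SULFUR 1 (Zm00001eb231110) had 8.16, 14.5 and 9.30 FPKM in *zmccd8* under 0N, against 3.11, 1.70 and 1.89 FPKM in *zmccd8* under CT. WT roots had 18.4, 8.74 and 32.0 FPKM under 0N, against 5.05, 3.87 and 3.12 FPKM under CT. It rose by 1.84 ± 0.27 on the log2 scale in *zmccd8* (limma, adjusted p = 0.0206) and by 1.90 ± 0.44 in WT (adjusted p = 0.0484), with no overlap.

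Gamma-glutamylcyclotransferase 2-2 (Zm00001eb051750), a glutathione-degrading enzyme, rose under 0N in WT (20.4, 13.0 and 19.9 FPKM, against 5.94, 9.11 and 8.25 FPKM under CT; 1.09 ± 0.23, limma, adjusted p = 0.0386). In *zmccd8* it had 12.1, 15.4 and 24.6 FPKM under 0N, against 11.9, 9.08 and 8.45 FPKM under CT, also without overlap but not called. SULFUR DEFICIENCY-INDUCED 1 (Zm00001eb403450) was called higher under WS in WT (2.25, 1.48 and 1.05 FPKM, against 0.206, 0.327 and 0.112 FPKM under CT; 1.07 ± 0.19, limma, adjusted p = 0.00657). It would not have passed the filter of 1 FPKM in 3 libraries without these WS libraries of WT, so the call is not independent of the filter. Outside WT under WS, its highest levels were 1.14 FPKM in WT and 1.00 FPKM in *zmccd8*, both under 0N.

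In *zmccd8*, SULFUR DEFICIENCY-INDUCED 1 had 0.755, 1.00 and 0.823 FPKM under 0N and 0.480, 0.504 and 0.858 FPKM under WS, against 0.258, 0.249 and 0.274 FPKM under CT. Under 0N it had 0.582, 0.374 and 1.14 FPKM in WT. These groups did not overlap CT but were not called, and a difference between the genotypes was not called for any gene of the list.

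For genes called higher, the list had 1 under 0N in *zmccd8* (1.74% of all features) and 2 in WT (1.94%). Under WS it had none in *zmccd8* (6.24%) and 1 in WT (7.41%), which had passed the filter through that group. The list had none called lower. Its median log2 difference was 0.56 and 0.47 under 0N in *zmccd8* and WT, and -0.37 and -0.03 under WS in *zmccd8* and WT, beside medians between -0.01 and 0.00 over all features. The summed level of its 15 genes was 203 to 237 FPKM in *zmccd8* under WS, below the 267 to 396 FPKM of *zmccd8* under CT, whereas 304 to 386 FPKM in WT under WS overlapped the 280.5 to 343 FPKM of WT under CT.

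Of 15 genes that use PAPS or oxidize sulfite, 11 were tested. Under WS, 2 were called lower in *zmccd8* (10.3% of all features) and 1 in WT (10.4%). The list median under WS was -0.04 in *zmccd8* and -0.01 in WT on the log2 scale, beside medians between -0.01 and 0.00 over all features. The sulfotransferase 15 homologue Zm00001eb187390 had 15.0, 19.4 and 20.9 FPKM in *zmccd8* under WS, against 70.6, 56.5 and 60.5 FPKM in *zmccd8* under CT, and 24.0, 25.3 and 9.69 FPKM in WT under WS, against 156, 66.2 and 38.3 FPKM in WT under CT. It fell, with log2 differences of -1.71 ± 0.15 in *zmccd8* (limma, adjusted p = 0.000306) and -1.96 ± 0.56 in WT (adjusted p = 0.0336), without overlap. A sulfotransferase 1 homologue (Zm00001eb327110) fell under WS in *zmccd8* (19.1, 22.9 and 29.4 FPKM, against 53.2, 54.0 and 48.6 FPKM under CT; -1.11 ± 0.16, limma, adjusted p = 0.00211). In WT it had 34.1, 28.5 and 47.9 FPKM under WS, against 51.3, 58.1 and 48.7 FPKM under CT, also lower in every library but not called. The 2 genes of sirohaem synthesis, the cofactor shared by sulfite and nitrite reductase, were not called in any comparison.

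A sulfotransferase 9 homologue (Zm00001eb141260), at low level and in the same segment of chromosome 3 as *sfp6*, was the gene of these lists that was called between the genotypes. It had 1.54, 2.52 and 2.25 FPKM in *zmccd8* under WS, against 0.613, 0.214 and 0.0429 FPKM in WT under WS, and 1.93, 1.79 and 2.90 FPKM in *zmccd8* under CT, against 0.174, 0.170 and 0.424 FPKM in WT under CT. The log2 differences were 1.28 ± 0.21 (limma, adjusted p = 0.047) and 1.34 ± 0.18 (adjusted p = 0.0217), with no overlap between the genotypes. Of all features, 0.901% were called between the genotypes under WS and 0.835% under CT. The gene passed the filter only through *zmccd8* libraries under WS and CT, the groups in which it was called higher. Its calls are thus not independent of the filter, and no WT library exceeded 0.613 FPKM.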

How the data were processed

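Values were deposited as FPKM per gene, which the authors computed from strand-specific, poly(A)-selected libraries: reads were trimmed, aligned with HISAT2 2.0.5 to Zm-B73-REFERENCE-NAM-5.0 and counted per gene with featureCounts, on annotated and StringTie-assembled features. The deposited FPKM were taken as given, and 1 emptied line was left out. Read numbers were recovered by multiplying each FPKM by its gene's length and dividing by what a single read was worth in that library, and 100% of the values above 0 came out whole within 0.01.

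Features that reached 1 FPKM in 3 or more of the 18 libraries (27530 of 55661) were tested as log2(FPKM + 1) with limma 3.58.1 (R 4.3.3, moderated test with variance trend), each comparison on its own 6 libraries and each interaction on 12, with Benjamini-Hochberg adjustment over all features, two-sided. The test was checked on simulated data. With 3 against 3 an exact permutation test cannot go below 0.1, so none was used. Alternatives were a pseudocount of 0.1, no filter, a mean of at least 5 FPKM, all 18 libraries in 1 fit, median-of-ratios scaling, no variance trend, a replicate block, voom on rebuilt reads, the adjusted p alone, and each library left out.

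Replicate numbers were checked by the correlation of deviations from the group means. In WS against CT in *zmccd8* all 3 same-numbered pairs exceeded 0.1 (0.135, 0.224 and 0.253), so these numbers were read as pairs from the data; the labels tie them to no shared plant or day. In the other comparisons at least 1 pair was below 0.1. Same-numbered libraries of *zmccd8* and WT under 0N were at -0.103, -0.293 and -0.388, so correlations of this size do not by themselves show pairing. The main fits used no pairing.

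Values in every library are given for members called in at least 1 comparison and for the member with the highest mean in each role; others are given by counts and ranges, or where singled out after their values were seen. Coordinates and homologues are those of the file. RefSeq symbols on the same assembly were taken for 37 of the 47 members by coordinate overlap of at least 80%. A further 22 transcript-level or assembled features that matched the description were left out by identifier. At most 0.618 FPKM was listed for a feature overlapping a member on the same strand. The members and lists were chosen with earlier results of these data known.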

Additional observations from a re-analysis of the deposited data

How the results depend on the processing

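None of the 27 calls of members reversed direction under any alternative. Some alternatives could not reverse a call, since they leave the log2 difference unchanged. These are the single fit of all 18 libraries, no variance trend, the replicate block and the adjusted p alone. Genes of the neighbouring lists were not followed through the alternatives. Of the 27 calls, 24 were kept in all 9 alternatives that used every library. Among these, the adjusted p alone could lose no call, because it only drops the fold limit. Median-of-ratios scaling changed little, with factors of 1.001 to 1.01. With each library left out in turn, 14 calls were kept, and 40 of 162 such fits lost the call. The number of members called moved by more than 1.5 times in these cases. With the adjusted p alone it was 12 under 0N in *zmccd8*, 5 under 0N in WT and 15 under WS in *zmccd8*, because the fold limit was dropped. Between *zmccd8* and WT under CT it was 1 (*sfp6*) with a mean of at least 5 FPKM, with all 18 libraries in 1 fit, without a variance trend and with voom. It was 1 (*sfp4*) under 0N with all 18 libraries in 1 fit, and 1 (*sfp6*) under WS with voom; the cause was not tested. Voom on the rebuilt reads called 9 members under 0N and 9 under WS in *zmccd8*, and 3 under 0N and 10 under WS in WT; over all features it called 2825, 6145, 1894 and 6487 in the same order, against 2029, 4565, 1311 and 4893 by limma.

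With each library left out, members called ranged from 2 to 6 under 0N in *zmccd8*, 1 to 4 under 0N in WT, 6 to 8 under WS in *zmccd8* and 6 to 10 under WS in WT. The counts were 2 without *zmccd8* CT replicate 1 or 3 or *zmccd8* 0N replicate 1, 3 without *zmccd8* 0N replicate 2, 1 without WT 0N replicate 1 and 6 without WT CT replicate 3. Between the genotypes they ranged from 0 to 1 under 0N, 0 to 0 under WS and 0 to 0 under CT, and for both interactions from 0 to 0.

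With a replicate block, 5 members were called under 0N in *zmccd8*, 2 under 0N in WT, 8 under WS in *zmccd8* and 10 under WS in WT, and 0 between the genotypes and in the interactions. The block ended the calls of Zm00001eb105800 under 0N in *zmccd8* and Zm00001eb322440 under 0N in WT and changed no other call. Under WS in *zmccd8*, the comparison in which the numbers were read as pairs, all 8 calls were kept.

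With 3 libraries per group, calls near the threshold rest on single libraries, most of all under 0N, and genes under about 1 FPKM were not tested.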
